A study of Pleurotus ostreatus with 4 samples.

Results

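The young fruit body of the oyster mushroom Pleurotus ostreatus, a wood-decaying basidiomycete, was set against the stage before it and the stage after it. Of the 51131 sequences in the deposited table, 7286 reached at least 5 FPKM (fragments per kilobase of sequence scaled to the library total) in primordium, young fruit body or mature fruit body, and these were described. For each, the midpoint deviation was taken: the value of log2(FPKM + 1) in young fruit body minus the mean of the values in primordium and mature fruit body. A sequence was called a peak where young fruit body lay above both neighbours by at least 1 on this scale, and a dip where it lay below both by at least 1. There were 9 peaks and 20 dips, which is 0.124% and 0.274% of the sequences described. The measured levels themselves chose these sequences, so their heights are given as a description, with no test.

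All libraries came from wild-type strain P739, 1 library for each stage, with vegetative mycelium as the fourth stage. Differences between stages could therefore not be set against a spread between replicates, and the labels do not say how many mushrooms were pooled. The libraries were of nearly equal depth, with 15048631 fragments behind the FPKM of primordium, 15400578 for young fruit body, 15691317 for mature fruit body and 15541785 for mycelium, as recovered from the steps of the FPKM values. Identifiers named contigs of a cluster (CL) or single unigenes and carried no gene names, and 0 of them were found among the 11849 genes that RefSeq lists for strain PC9. The function of no sequence is stated for this reason, and the stage labels could not be checked against marker genes.

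Mushroom development starts when mycelium, a network of growing hyphae, knots into a primordium, a compact body in which the tissues of the mushroom are laid down. In the young fruit body stem and cap become distinct and enlarge, mainly by expansion of cells. In the mature fruit body the gills under the cap carry basidia, the cells in which meiosis takes place and on which spores form. Each bulk library mixes the cells of its own stage, so that fewer cells of a type and less RNA per cell cannot be told apart.

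For most sequences the young stage lay within 0.25 log2 of the midpoint of its neighbours. The neighbours themselves differed by a median of only 0.25 log2, so a small deviation does not by itself place the young stage between them. The median midpoint deviation was 0.02 log2, and from the 5th to the 95th percentile it ran from -0.52 to 0.49. It was under 0.25 in size for 5255 sequences (72.1%) and under 0.5 for 6548 (89.9%). It reached 1 or more in size for 196 sequences (2.69%), of which 60 lay above the midpoint and 136 below it.

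With FPKM as deposited, the young stage was on average nearer to primordium than to mature fruit body. The median size of the log2 difference was 0.17 between primordium and young fruit body, 0.20 between the young and mature stages, and 0.25 between both outer stages. The mean squared log2 differences were 0.23, 0.39 and 0.74 in the same order. Across the 7286 sequences, Pearson's r of log2(FPKM + 1) was 0.970 for primordium and young fruit body, 0.946 for the young and mature stages and 0.902 for both outer stages. These values run across sequences of the same 3 libraries and are descriptions only. Young fruit body was nearer to primordium for 3996 sequences (54.8%) and nearer to mature fruit body for 3290 (45.2%). Another scaling of the libraries would shift both steps, and neither the step sizes nor these counts were recomputed under one.

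Small departures beyond both neighbours were common and large ones rare. Young fruit body lay above both by any amount for 2195 sequences and below both for 1446, and it lay between them or level with one of them for 3645 (50.03%). The excess on the upper side depended on scaling: 60.3% of the sequences outside lay above with FPKM as deposited, against 46.8% (1604 above and 1822 below) with median-of-ratios factors and 50.1% (1699 and 1689) with upper-quartile scaling. A departure of at least 0.25 log2 was found for 393 sequences above and 251 below. At 0.5 log2 the numbers were 99 and 76, and at 1 log2 they were 9 and 20. Dips outnumbered peaks at 1 log2, whereas at 0.5 log2 there were more sequences above than below. The order at 1 log2 depended on the minimum of 5 FPKM, as a minimum of 1 FPKM gave 43 peaks and 42 dips.

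**Figure D1:**
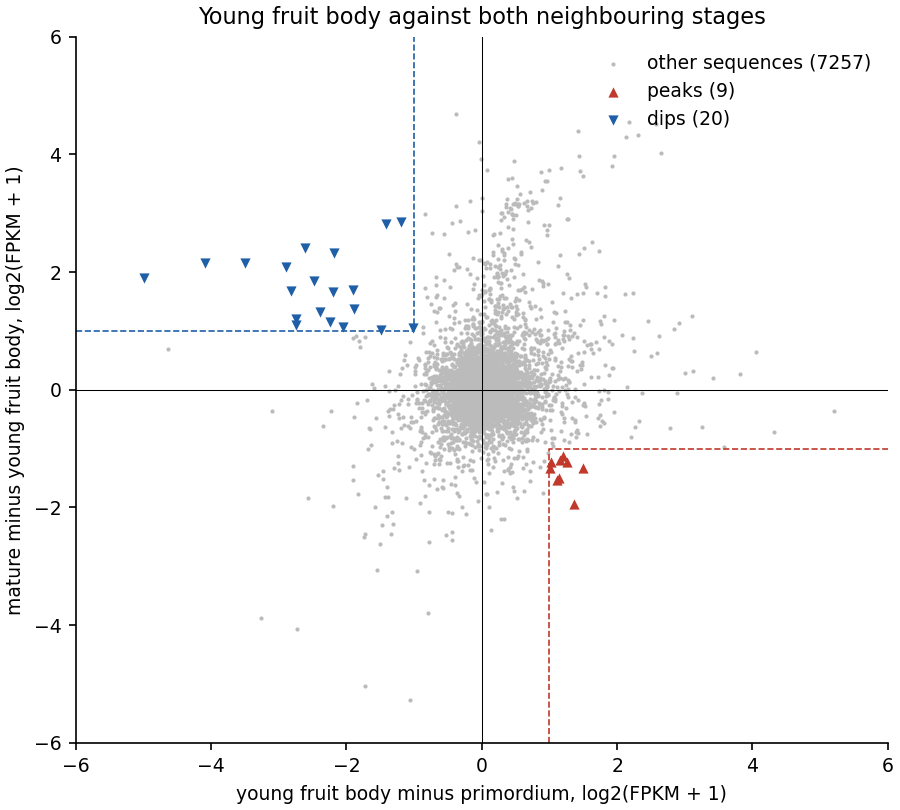
Each point is 1 of the 7286 sequences, placed by its log2(FPKM + 1) difference from primordium to young fruit body (x axis) and from young to mature fruit body (y axis). The 9 peaks lie beyond the dashed lines at lower right, all within 2 log2 of both neighbours, and the 20 dips lie beyond the dashed lines at upper left and reach farther out.

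Where primordium and mature fruit body differed, the position of the young stage on the way between them could be given. The neighbours differed by at least 1 log2 for 896 sequences, of which 602 (8.26% of those described) stood higher in mature fruit body and 294 (4.04%) stood lower. Position was scored as 0 at the primordium level and 1 at the mature level on the log2(FPKM + 1) scale. Young fruit body lay strictly between its neighbours for 772 of the 896 sequences (86.2%), short of the primordium level or level with it for 74 and at or beyond the mature level for 50. The median position was 0.37, with quartiles of 0.17 and 0.60.

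On the log2(FPKM + 1) scale, sequences higher in mature fruit body mostly lay nearer to primordium in the young stage. Their median position was 0.33 (quartiles 0.14 and 0.60), and 254 of 602 (42.2%) lay strictly between 0 and 0.333, 168 from there to 0.667 and 94 from there to 1. Their median level was 3.004 FPKM in primordium, 6.06 in the young and 14.8 in the mature fruit body. Together they took 1.96% of the recovered fragments in primordium, 3.84% in the young and 8.91% in the mature fruit body, each with a 95% Wilson interval of at most 0.0142 percentage points to either side. Intervals here cover counting error only.

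Sequences lower in mature fruit body lay nearer to the middle, with a median position of 0.41 (quartiles 0.26 and 0.60). Of these 294 sequences, 81 (27.6%) lay between 0 and 0.333, 130 (44.2%) between 0.333 and 0.667 and 45 from there to 1. Their median level was 16.7 FPKM in primordium, 10.5 in the young and 4.66 in the mature fruit body. Their share of the fragments was 6.49%, 3.31% and 1.69% in the same order, with intervals of at most 0.0125 points to either side. The difference between both directions in median position was not tested, because there is 1 library per stage. Adding 1 to FPKM shrinks differences at low levels, which lie at the primordium end for 1 direction and the mature end for the other. For both directions together, the median position was 0.32, 0.37, 0.39 and 0.46 from the lowest to the highest of 4 equal groups by mean level. It was 0.39 with a pseudocount of 0.1 and 0.33 with one of 5. Neither direction was recomputed alone.

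The position also differed with the size of the difference between the outer stages. Among sequences higher in mature fruit body, the median position was 0.39 for the 358 with a log2 difference of 1 to 2, 0.26 for the 133 with 2 to 3, and 0.24 for the 111 with 3 or more. In this last group 88 of 111 were nearer to primordium, and the median level was 1.88 FPKM in primordium, 6.58 in the young and 42.8 in the mature fruit body. The pseudocount weighs on position at so low a primordium level, and the order was not recomputed with another pseudocount. Among sequences lower in mature fruit body the medians were 0.42, 0.43 and 0.41 for 216, 50 and 28 sequences, so no such order was seen. The order among sequences higher in mature fruit body was not the same by kind of sequence: in order of the difference, the medians were 0.40, 0.18 and 0.21 for 227, 91 and 64 contigs of clusters, and 0.39, 0.50 and 0.26 for 131, 42 and 47 unigenes. Over all sequences lower in mature fruit body the medians were 0.40 for contigs and 0.43 for unigenes.

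**Figure D2:**
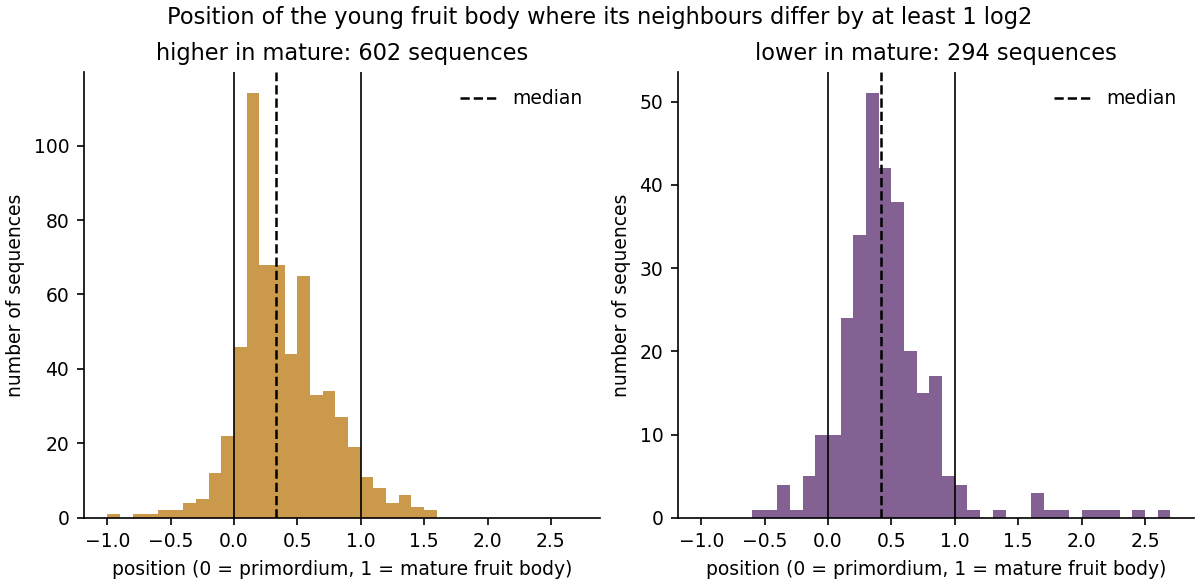
Histograms of the position of young fruit body, from 0 (primordium level) to 1 (mature level), for the 602 sequences higher and the 294 sequences lower in mature fruit body by at least 1 log2. The dashed medians stand at 0.33 and 0.41, and the long tail in the right panel belongs to sequences whose young level was lower still than the mature level.

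The sequences with the longest way between the outer stages lay at positions of 0.32 to 0.40 where mature fruit body was higher and of 0.26 to 0.46 where it was lower, so both ranges overlapped. Unigene7400 (recovered length 1025 nt) stood at 3.45 FPKM in mycelium, 23.4 in primordium, 145 in the young and 3319 in the mature fruit body, at position 0.36. Unigene3842 (1842 nt) had 0.314, 1.88, 17.0 and 291 FPKM in the same order, at position 0.40, and CL3980.Contig3 lay at position 0.32. Most of their increase on the log2 scale thus lay after the young stage. Recovered lengths are the shortest that give whole fragment counts and can be a whole fraction of the true length.

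In the other direction CL3068.Contig1 (528 nt) had 33.3 FPKM in mycelium, 1820 in primordium, 188 in the young and 11.8 in the mature fruit body, at position 0.46. Unigene1434 (660 nt) had 18.3, 1020 (10135 fragments), 153 and 8.21 FPKM, at position 0.40. CL6379.Contig1 lay at position 0.26, with most of its decrease after the young stage. The first pair had covered somewhat under the middle of the way by the young stage.

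The 9 peaks were modest in height. Their FPKM in young fruit body was 2.26-fold to 2.93-fold that in primordium and 2.25-fold to 3.85-fold that in mature fruit body, and their midpoint deviations ran from 1.13 to 1.65, against a median of 0.02 over all sequences described. The 95% counting interval, which covers counting error in these libraries and not the spread between mushrooms, lay above 1 for both ratios in all 9. It lay above 2 for both ratios in 3 of 9, namely Unigene398, Unigene5418 and CL5676.Contig2. The levels in these ratios chose the peaks, and the intervals take no account of that choice. Together the peaks took 0.0719% of the fragments in primordium, 0.188% in the young and 0.0576% in the mature fruit body (95% Wilson intervals of at most 0.00218 points to either side).

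Unigene398 (975 nt) was the most abundant peak and took most of these fragments. It stood at 1.98 FPKM in mycelium, 486 in primordium, 1247 in the young and 324 in the mature fruit body. The ratio to primordium was 2.57 (95% counting interval 2.50 to 2.64) and that to mature fruit body 3.85 (3.73 to 3.98). It was high in all 3 fruiting libraries and near the bottom of the scale in mycelium, where it rested on 30 fragments against 18729 in young fruit body.

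Unigene5418 (1982 nt) had the same shape at a lower level, with 2.63 FPKM in mycelium, 84.8 in primordium, 241 in the young and 95.4 in the mature fruit body. Young fruit body was 2.84-fold above primordium (2.72 to 2.98) and 2.53-fold above mature fruit body (2.42 to 2.64). CL5676.Contig2 (1490 nt) had 7.38, 20.2, 46.5 and 19.8 FPKM from mycelium to mature fruit body. Its neighbours were almost level, and young fruit body exceeded them 2.29-fold (2.05 to 2.57) and 2.34-fold (2.10 to 2.62). Unigene6230 (1718 nt) likewise had near-level neighbours, with 1.57, 12.7, 30.6 and 13.6 FPKM. Its ratios were 2.41 (2.11 to 2.74) and 2.25 (1.99 to 2.56).

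The other peaks were of low abundance. CL3423.Contig3 (1569 nt) had 2.54 FPKM in mycelium, 4.19 in primordium, 10.4 in the young and 3.05 in the mature fruit body. CL6507.Contig2 (727 nt) had 0.0885, 2.56, 7.50 and 2.63 FPKM, from 1, 28, 84 and 30 fragments. Its ratio to primordium was 2.93 with an interval of 1.89 to 4.67. CL6327.Contig2, CL2455.Contig1 and Unigene5462 stood at 8.58, 10.4 and 5.94 FPKM in young fruit body. CL2455.Contig1 rested on the fewest fragments, 37 in young fruit body, 16 in primordium and 14 in mature fruit body. In all, 5 of the 9 peaks were under 5 FPKM in both neighbours and so entered the description through young fruit body alone. With a pseudocount of 5 in place of 1, only 3 peaks remained.

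The 20 dips went deeper than the peaks were high. Primordium exceeded young fruit body 2.40-fold to 41.2-fold among the 19 with a fragment in young fruit body, with a median of 7.35, and mature fruit body exceeded it 2.22-fold to 23.6-fold, with a median of 4.54. Midpoint deviations ran from -1.03 to -3.45, with a median of -1.996. The 95% counting interval of both ratios lay above 1 for all 20 and above 2 for 16. As with the peaks, these intervals take no account of the choice of dips by the same levels. Primordium stood above mature fruit body in 16 of 20, against 49.8% of all sequences described, and by at least 1 log2 in 8, against 4.04%. Mature fruit body was higher by at least 1 log2 in 2, against 8.26%. The 16 include all 4 dips of cluster CL374, of which CL374.Contig1, CL374.Contig2 and CL374.Contig6 are among the 8. Contigs of 1 cluster are not independent. The primordium and mature levels took part in the choice of dips, so these shares are a description only. The dips took 0.982% of the fragments in primordium, 0.104% in the young and 0.410% in the mature fruit body, with Wilson intervals of at most 0.00502 points to either side.

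**Figure D3:**
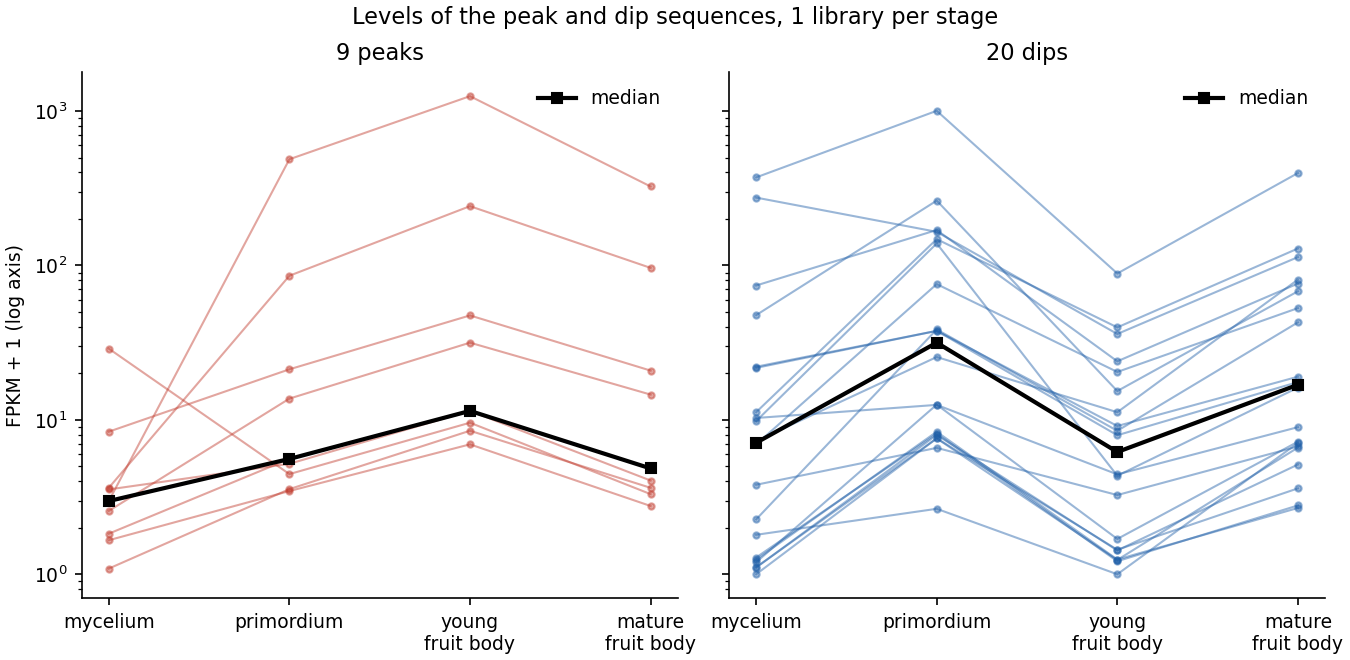
FPKM + 1 on a log axis for each of the 9 peaks (left) and 20 dips (right) in the mycelium, primordium, young and mature fruit body libraries, with the median of each set in black. The median of the peaks stood at 1.98, 4.58, 10.4 and 3.85 FPKM and that of the dips at 6.10, 30.6, 5.19 and 15.9 FPKM in order of stage.

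Most of the fragments of the dips belonged to a single cluster, CL374, whose 7 contigs all reached 5 FPKM. CL374.Contig6 (6253 nt) had 371 FPKM in mycelium, 1002 in primordium, 87.7 in the young and 396 in the mature fruit body. Primordium exceeded young fruit body 11.4-fold (11.2 to 11.7) and mature fruit body exceeded it 4.51-fold (4.41 to 4.62). Mycelium and mature fruit body stood at nearly the same level, with primordium above both and young fruit body below both. CL374.Contig1 (6513 nt) had 73.1, 169, 22.9 and 75.3 FPKM in order of stage, the same shape at a lower level.

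CL374.Contig2 and CL374.Contig3 were also dips, at 6.95 and 8.12 FPKM in young fruit body. CL374.Contig4 and CL374.Contig5 fell just short of the threshold, at 0.92 and 0.90 log2 below the nearer neighbour. Over these 6 long contigs, of 6253 to 6723 nt, the ratio of primordium to young fruit body ran from 3.50 to 11.4, that of mature to young fruit body from 1.94 to 4.51 and that of mycelium to young fruit body from 2.02 to 4.23. The remaining contig, CL374.Contig7 (342 nt), did not share the dip, with 31.8, 33.4, 34.9 and 34.7 FPKM. Contigs of 1 cluster may share sequence, so they are not independent observations, and the sources used here do not say how fragments were divided between them. Summed, the cluster took 0.851% of the primordium fragments and 0.0966% of those in the young stage, and the 16 dips outside it took 0.185% and 0.0228%.

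**Figure D4:**
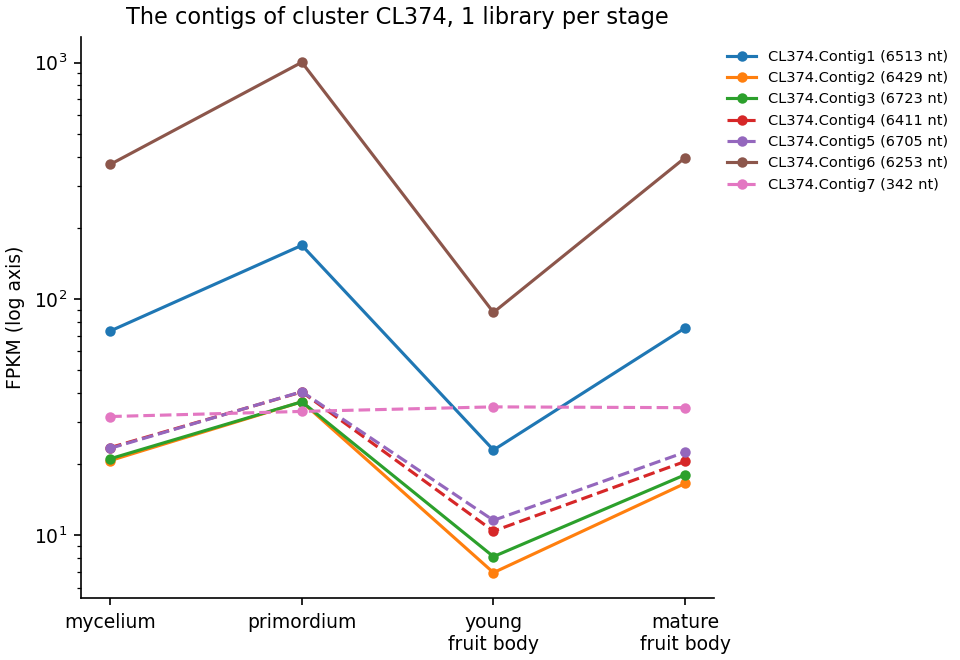
FPKM on a log axis of the 7 contigs of cluster CL374 in the 4 libraries, with solid lines for the 4 contigs called dips and dashed lines for the others. The 6 long contigs are lowest in young fruit body and highest in primordium, and CL374.Contig7 is level at 31.8 to 34.9 FPKM.

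Several other abundant dips were unigenes. Unigene2861 had the largest midpoint deviation, -3.45, because primordium stood far above all other stages. It had 8.82 FPKM in mycelium, 138 in primordium, 3.34 in the young and 15.2 in the mature fruit body. Unigene6360 (3562 nt) had 46.7, 262, 14.4 and 67.0 FPKM in order of stage. Its ratio of primordium to young fruit body was 18.2 (17.0 to 19.6) and that of mature to young fruit body 4.67 (4.32 to 5.04). In both, mycelium was higher than young fruit body and lower than mature fruit body.

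Unigene4121 (1834 nt) had 10.2 FPKM in mycelium, 147 in primordium, 38.7 in the young and 128 in the mature fruit body, so that its neighbours were near level. Young fruit body lay 3.80-fold below primordium (3.55 to 4.07) and 3.30-fold below mature fruit body (3.08 to 3.53). Unigene7559 (1839 nt) had 274, 164, 35.0 and 112 FPKM and was the only dip with mycelium as its highest library. Unigene8240 (420 nt) had 6.28, 24.5, 10.2 and 80.0 FPKM, with mature fruit body 7.84-fold above the young stage (6.06 to 10.3).

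Cluster CL3281 gave a dip in both of its contigs. CL3281.Contig2 (1118 nt) had 1.27 FPKM in mycelium, 37.5 in primordium, 7.49 in the young and 41.8 in the mature fruit body. CL3281.Contig1 (966 nt) had 5.93, 74.7, 19.4 and 51.9 FPKM. Primordium exceeded young fruit body 5.01-fold (4.14 to 6.10) in Contig2 and 3.85-fold (3.37 to 4.39) in Contig1. The neighbours of Contig2 were near level, while primordium was the higher neighbour of Contig1.

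A further 7 dips were close to silence in the young stage, at under 1 FPKM. Of these, 6 were unigenes, namely Unigene7715, Unigene7593, Unigene606, Unigene6386, Unigene1199 and Unigene8454. They had 0.215 to 0.693 FPKM in young fruit body, from 2 to 12 fragments, and 0 to 0.284 FPKM in mycelium, from 0 to 8 fragments. In primordium they had 6.58 to 11.5 FPKM (54 to 195 fragments), and in mature fruit body 1.69 to 6.22 FPKM (21 to 79 fragments). That both neighbours were above young fruit body in all 6 follows from the rule for dips. Mycelium, which the rule did not use, was near 0 like the young stage.

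Unigene7715 (545 nt) lay farthest outside its neighbours of all dips on the log2 scale, by 2.42, with 6.58 FPKM in primordium, 0.238 in the young and 5.61 in the mature fruit body. Its ratio of primordium to young fruit body, 27.6, rested on 54 and 2 fragments and had an interval of 7.29 to 234. In mycelium it had 0 fragments, which allows up to 0.354 FPKM at 3 fragments. Unigene7593 (656 nt) had 11.5, 0.693 and 6.22 FPKM in primordium, young and mature fruit body, with ratios of 16.7 (7.83 to 42.4) and 8.97 (4.11 to 23.2). CL735.Contig2 (241 nt) was the seventh, with 0 fragments in young fruit body against 6 in primordium and 23 in mature fruit body. With young fruit body set to a floor of 3 fragments, primordium was 2.05-fold higher and mature fruit body 7.52-fold higher. These are not lower bounds. The counting intervals, taken with 0 fragments, include the error of the few fragments in both neighbours and began lower, at 1.205 and 5.64.

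The remaining dips, CL4403.Contig3 and CL3477.Contig1, lay close to the threshold, both 1.02 log2 below the nearer neighbour, and rested on 11 and 12 fragments in young fruit body. The minimum of 5 FPKM was met in both neighbours by 15 of the 20 dips and through 1 neighbour alone by the others.

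The mycelium library took no part in the choice of peaks and dips. The median mycelium level was 1.98 FPKM for the peaks and 6.10 FPKM for the dips, against 14.3 FPKM over all 7286 sequences. It was under 1 FPKM for 3 of 9 peaks and 7 of 20 dips, against 4.41% of all. The lowest of 4 equal groups by mean level held 5 of the 9 peaks and 8 of the 20 dips.

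The comparison of mycelium with young fruit body uses the young level that chose the members, and it is therefore a description. Mycelium stood lower than young fruit body by at least 1 log2 in 8 of 9 peaks, against 21.2% of all sequences. The exception was CL6327.Contig2 (885 nt), with 27.9 FPKM in mycelium, 3.45 in primordium, 8.58 in the young and 2.30 in the mature fruit body. Among the dips, mycelium was higher by at least 1 log2 in 8 of 20, against 12.0% of all, and 4 of these 8 were contigs of CL374. It was within 1 log2 of young fruit body in 9 and lower by at least 1 log2 in the other 3, CL3281.Contig2, CL3281.Contig1 and Unigene4121. All 7 dips under 1 FPKM in young fruit body were under 1 FPKM in mycelium too, as were 43 of the 52 such sequences overall.

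**Figure D5:**
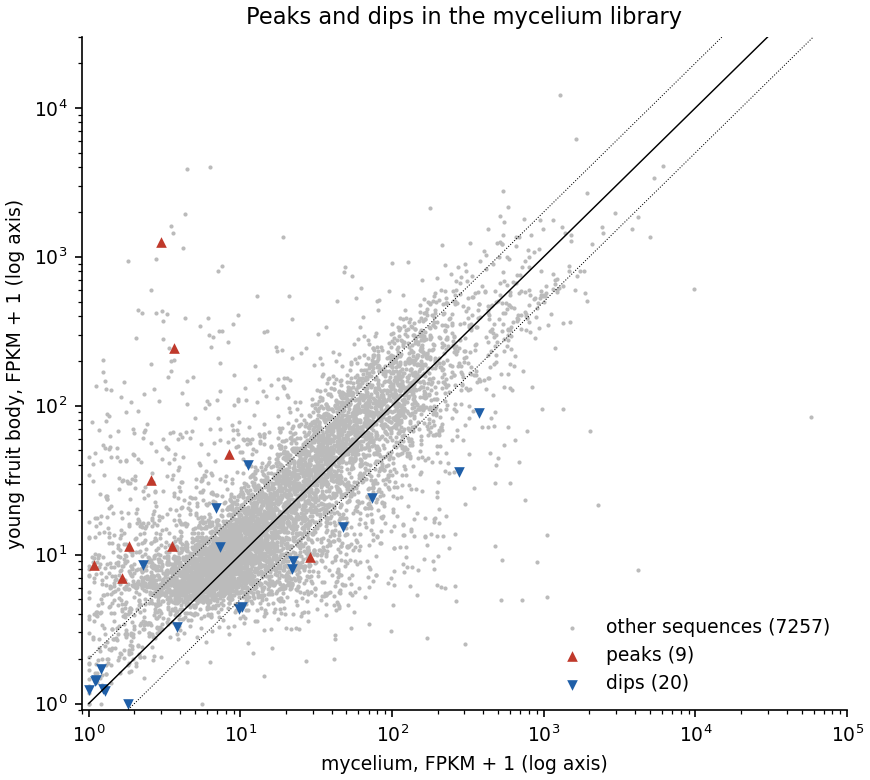
FPKM + 1 in mycelium (x axis) and young fruit body (y axis), both on log axes, for 9 peaks, 20 dips and the other 7257 sequences, with the solid line at equality and dotted lines at 2-fold. Of the peaks 8 lie above the upper dotted line and 1 below the lower one, and 8 of the 20 dips lie below the lower dotted line.

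The other contigs of the clusters involved shared the shape in part. CL3423.Contig5 (2652 nt), with 3.18, 6.90 and 2.43 FPKM in primordium, young and mature fruit body, lay 0.92 log2 above the nearer neighbour, close behind its peak mate CL3423.Contig3. CL3423.Contig4 was higher in young fruit body by 0.44 log2, whereas CL3423.Contig1 was level, with a midpoint deviation of 0.03. CL6327.Contig1 was too low to be described but lay 0.95 log2 above its nearer neighbour, from 11 fragments in young fruit body. The mates of the dips CL4403.Contig3 and CL735.Contig2 did not dip by 1 log2. CL735.Contig1 lay between its neighbours, and CL4403.Contig2 lay below both by 0.13 log2. Most mates too low to be described went in the direction of the member, by less and from few fragments. CL2455.Contig2, CL2455.Contig3, CL2455.Contig4, CL3423.Contig2, CL5676.Contig1, CL6507.Contig1 and CL6507.Contig4 lay above both neighbours by 0.01 to 0.33 log2, as their peak mates did. Only CL3477.Contig2 and CL6507.Contig3 differed from the member. CL3477.Contig2, mate of the dip CL3477.Contig1, lay above both neighbours by 0.16 log2, from 4 fragments in young fruit body. CL6507.Contig3, mate of the peak CL6507.Contig2, had 0.784, 1.53 and 3.65 FPKM in primordium, young and mature fruit body and so lay between its neighbours.

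Just short of a peak were Unigene8137, Unigene7274 and Unigene8582, at 0.97, 0.97 and 0.96 log2 above the nearer neighbour. Unigene7274 (862 nt) was of another shape than the peaks, with 1.12 FPKM in mycelium, 36.0 in primordium, 439 in the young and 224 in the mature fruit body. It had already reached a level 12.2-fold above primordium (11.1 to 13.4), and mature fruit body remained 6.23-fold above primordium (5.65 to 6.88). Just short of a dip, after both CL374 contigs named above, was Unigene4143, at 0.88 log2 below the nearer neighbour and from 5 fragments in young fruit body.

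Large midpoint deviations mostly came without a peak or dip. Of the 196 sequences with a deviation of at least 1, 167 were neither. The largest positive deviations among these were 2.79 for CL6317.Contig1 and 2.52 for CL2597.Contig2, in which young and mature fruit body were both far above primordium. The largest negative ones were -2.67 for Unigene10085, abundant in primordium alone, and -2.54 for CL3924.Contig5, abundant in mature fruit body among the fruiting stages. Both had 0 fragments in young fruit body. These values show that a large deviation from the midpoint can come from 1 neighbour alone.

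Deviations of at least 1 were most frequent in the lowest group by mean level and the shortest by length. From the lowest of the 4 groups by level (median 5.08 FPKM) to the highest (median 118 FPKM), the shares were 5.49%, 1.76%, 2.42% and 1.10%. The median absolute deviation was 0.20 in the lowest and 0.10 in the highest. Level and deviation use the same 3 values, and a low mean passes the minimum only where 1 value reaches 5 FPKM. The order by level is therefore only a description. Over all sequences the share rose with the minimum, from 1.92% at 1 FPKM to 2.69% at 5 and 3.03% at 20. By recovered length the share was 3.84% in the shortest of 4 equal groups, up to 887 nt, and 1.59% in the longest, which began at 2785 nt. The peaks had a median length of 975 nt and the dips of 1168 nt, against 1670 nt over all sequences described.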

How the data were processed

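The table deposited by the authors held FPKM for 51131 sequences in 4 libraries, per the file headers. The sources used here do not give the aligner, counting tool, sequence set or filters. Columns were assigned to stages by the short names in the labels. Fragment counts and lengths were recovered with Python 3.11.15 and NumPy from the steps of low FPKM values, under a shortest length of 200 nt and a tolerance of 5.2e-05 FPKM. All 50567 sequences above 0 gave whole counts. Among the 17726 above 0.5 FPKM in every library 100.0% did, against 0.677% of a subset of these at shifted denominators. Counts with a common factor are understated, which widens intervals. Recovered fragments summed to 98.6% to 98.8% of the denominators, whose size sets the precision. Recovery and calls were tested on simulated data with counting error only. Changes were planted in abundant sequences alone, so calls of low members and the spread between mushrooms were not tested.

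Differences are on log2(FPKM + 1), which understates changes of low sequences, and ratios are of FPKM. Ratio intervals are exact Clopper-Pearson counting intervals at 95%. With 1 library per stage no test between stages was run. Members, naming rule and alternatives (pseudocount, minimum, threshold, scaling, cluster sums, counting intervals) were chosen with earlier results of these data known. All peaks and dips were named, with the sequences nearest the threshold, those with the longest way between the outer stages and those with the largest midpoint deviations.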

Additional observations from a re-analysis of the deposited data

How the results depend on the processing

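All alternatives were planned, though with earlier results of these data known. The 2.69% of sequences with a midpoint deviation of at least 1 and the 86.2% with young fruit body strictly between were recomputed with the other values. With a pseudocount of 0.1 there were 16 peaks, and 3.49% deviated by at least 1. With a pseudocount of 5 there were 3 peaks and 9 dips, all of them on the reported lists, a median midpoint deviation of 0.015, 1.29% deviating, a median position of 0.33 and 89.8% between. A minimum of 1 FPKM gave 43 peaks, 42 dips, 1.92% and 81.0%. No minimum gave 43, 42, a median deviation of 0.0029, 0.754% and 81.0%. A minimum of 20 FPKM gave 4 peaks, 11 dips and 3.03% deviating. The minimums admit more or fewer sequences. The median midpoint deviation changed sign with median-of-ratios scaling, to -0.014, and with upper-quartile scaling, to -0.0021; the cause was not tested. Under these scalings 7 of the 9 peaks and 19 of the 20 dips remained, and with equal sums all did. Sums over clusters gave 13 dips, all of them among the 16 clusters and unigenes of the reported dips, and 2.30% deviating. They gave 7 peaks, 6 of them among the 9 reported. A threshold of 2 log2 gave 0 peaks and 5 dips, and one of 0.5 log2 gave 99 and 76. Neighbours at least 2 log2 apart gave a median position of 0.31 and 91.9% between. The midpoint deviations of single members kept their direction in 247 of 247 recalculations, and 31 of these moved by more than counting error. Many could not have changed direction, so the count is no support. Another minimum leaves each value as it is, and cluster sums leave unigenes as they are. No pseudocount turns the sign for a sequence outside both neighbours. Sequences with few fragments limit the account: 9 of 20 dips had under 20 fragments in young fruit body. No paired analysis was possible because there was only 1 library per stage.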
